A study of Mus musculus with 24 samples.

Results

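This account follows 9 genes of blood coagulation and fibrinolysis at the vessel wall across the cortex of 24 mice, 1 RNA-seq library per mouse. The genes are F3, Tfpi, Thbd, Procr, Pros1, Vwf, Plat, Plau and Plaur. They were chosen by symbol, as the rows of the deposited count table with 1 of these 9 names, and each symbol matched a single gene of the 43346 in the table. The rule uses no measured value, but the list was drawn up with earlier results of these data known. The 4 groups of 6 mice were mice labelled Abca7 with LPS, mice labelled Abca7 without a stimulus, control mice with LPS and control mice without a stimulus. Per the series design text, the mice labelled Abca7 are heterozygous for Abca7, which encodes a membrane protein that moves lipids, and LPS (lipopolysaccharide, the bacterial surface molecule recognised through Toll-like receptor signalling) was given by injection. The sources used here give neither the nature of the Abca7 allele nor the strain, dose, route or time of collection. Ages were not matched: mice were 54 to 56 days old in the labelled Abca7 LPS group and 55 to 58 days in the unstimulated labelled Abca7 group, against 54 to 56 days in the control LPS group and 55 to 57 days in the unstimulated control group.

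Coagulation starts when tissue factor, the product of F3, binds factor VII and the complex activates factor X, which leads to thrombin and fibrin. The vessel wall holds this in check with the inhibitor encoded by Tfpi and with the protein C system, in which thrombin bound to thrombomodulin (Thbd) activates protein C held on its receptor (Procr), with protein S (Pros1) as a cofactor. Fibrin is cleared by plasmin, which is cut from plasminogen by tissue-type plasminogen activator (Plat) and by urokinase (Plau), and urokinase acts while bound to its receptor (Plaur). In the brain, astrocytes are a known source of tissue factor and tissue-type plasminogen activator also acts at synapses.

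Under LPS, 4 of the 9 genes rose in both genotypes, 2 fell in both, and 3 did not pass the test in either. Of all tested genes, 6.65% rose and 5.18% fell in mice labelled Abca7, while 9.39% rose and 7.92% fell in control mice. Plaur rose the most, 10-fold in mice labelled Abca7 and 14.9-fold in control mice, followed by Procr at 3.45-fold and 4.23-fold. Pros1 and Plat rose by smaller factors, 1.37-fold and 1.23-fold in mice labelled Abca7 and 1.39-fold and 1.35-fold in control mice. Vwf and Plau fell, with folds of 0.517 and 0.663 in mice labelled Abca7 and 0.540 and 0.571 in control mice. None of the 9 genes passed the test between the genotype labels at either stimulus. The share of all tested genes that passed was 0.032% without LPS and 0% under LPS.

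Counts were tested for 21891 genes in 1 fit over all 24 libraries with edgeR's quasi-likelihood test, adjusted by Benjamini-Hochberg over all of them, with a threshold of 0.05, and all 9 genes passed its filter on low counts. In mice labelled Abca7, 6 of the 9 genes passed under LPS, where 11.8% of all tested genes did. In control mice, 6 of 9 passed, where 17.3% of all tested genes did. The 6 genes and their directions were the same in both genotypes. The median log2 fold change of the 9 genes was 0.0371 in mice labelled Abca7 and 0.09 in control mice, beside 0.00516 and 0.00514 over all tested genes. For 3 of the 9 genes the labelled Abca7 LPS libraries did not overlap the unstimulated ones (5.73% of all genes), and for 6 of 9 the control LPS libraries did not overlap the unstimulated ones (9.06% of all genes).

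**Figure D1:**
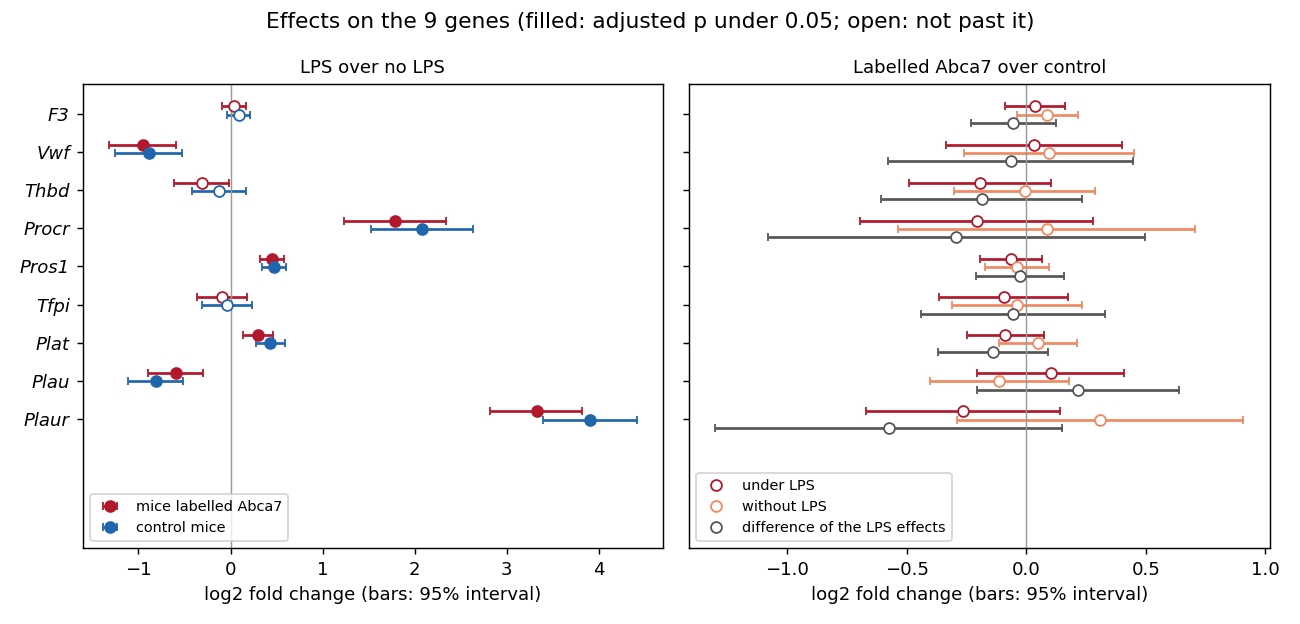
Log2 fold changes of the 9 genes with 95% intervals, for LPS over no LPS on the left and labelled Abca7 over control on the right; filled points have an adjusted p under 0.05. The 6 filled pairs on the left lie on the same side of 0 in both genotypes, and every interval on the right includes 0.

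The libraries held 48149131 to 75741388 counts, which put 12 to 109 counts on Procr, 23 to 694 on Plaur and 258 to 1225 on Vwf. Levels are given in CPM (counts after scaling every library to the same size, TMM factors included). Abca7 itself averaged 29.4 ± 2.30 CPM in labelled Abca7 LPS mice and 24.5 ± 2.66 CPM in control LPS mice, and 32.1 ± 2.07 CPM in unstimulated labelled Abca7 mice against 28.6 ± 2.22 CPM in unstimulated control mice (SD, n = 6 each). The label was thus not matched by a lower Abca7 level, and these mice are called labelled Abca7 throughout. Labelled Abca7 LPS replicate 4 stood apart from its group in several genes, and values without it are given beside several results. Of 12 endothelial markers, 9 were lower and 3 higher (Cdh5, Esam and Erg) under LPS in both genotypes, where their summed level was 151 to 162 CPM in labelled Abca7 LPS mice against 172 to 209 CPM in unstimulated ones, and 157 to 169 CPM in control LPS mice against 183 to 199 CPM in unstimulated ones. All 12 endothelial and all 10 neuron markers passed the filter, and no neuron marker changed under LPS.

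RefSeq promoter windows were matched for F3, Procr, Tfpi, Plaur and Pros1, and 4 of them are shown because they set the 2 genes that rose most beside a gene that rose little and a gene that did not pass. Each is the sense strand of GRCm38.p6 before the gene start, at chr7:24462233-24462482 (+) for Plaur, chr2:155750967-155751116 (+) for Procr, chr16:62854057-62854306 (+) for Pros1 and chr3:121723287-121723536 (+) for F3. Capitals mark letters of any of the 6 motifs searched on both strands.
Plaur: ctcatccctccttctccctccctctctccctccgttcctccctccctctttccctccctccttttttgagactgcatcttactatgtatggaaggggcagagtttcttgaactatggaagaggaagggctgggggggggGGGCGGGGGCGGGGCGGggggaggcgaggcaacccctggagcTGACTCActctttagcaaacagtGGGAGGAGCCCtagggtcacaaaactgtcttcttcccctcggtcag
Procr: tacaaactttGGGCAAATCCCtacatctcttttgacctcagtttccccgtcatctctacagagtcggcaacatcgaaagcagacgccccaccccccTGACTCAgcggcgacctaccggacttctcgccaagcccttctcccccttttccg
Pros1: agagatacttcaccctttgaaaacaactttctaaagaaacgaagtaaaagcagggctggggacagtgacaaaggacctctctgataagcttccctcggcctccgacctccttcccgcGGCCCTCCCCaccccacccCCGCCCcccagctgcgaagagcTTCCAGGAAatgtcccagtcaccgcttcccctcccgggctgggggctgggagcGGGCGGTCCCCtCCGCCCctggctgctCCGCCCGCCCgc
F3: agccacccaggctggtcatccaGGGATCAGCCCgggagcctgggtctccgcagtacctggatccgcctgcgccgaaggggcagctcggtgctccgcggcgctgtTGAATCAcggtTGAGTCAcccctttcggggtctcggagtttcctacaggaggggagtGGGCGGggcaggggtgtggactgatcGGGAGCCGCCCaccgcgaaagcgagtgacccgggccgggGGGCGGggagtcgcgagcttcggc

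Letters of the AP-1 motif, TGANTCA, stood in the windows of Plaur, Procr and F3, which is 3 of the 5 matched genes, and 6.75% of 32851 promoter windows of 250 bases hold them. F3, which did not pass the test under LPS, had 2 of them. The NF-kB motif (GGG, any 5 bases, then CC) stood in a window of each of the 5 genes and in 45.8% of all promoters, and the Sp1 or KLF motif GGGCGG in 4 of 5 and in 32.7%. Matches of these motifs overlap each other in places, as in Pros1. TTCNNNGAA (STAT) matched in Pros1 and in 7.02% of all promoters, TATAAA in Tfpi and in 12.4%, and ACAATNG (Sox) in Tfpi and in 6.91%. A match is a run of letters and does not show that a factor binds.

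The starter of coagulation did not pass the test. F3 (tissue factor, 3:121723537-121735052) spanned 30.9 to 40.3 CPM with a median of 33.7 in labelled Abca7 LPS mice and 30.7 to 35.5 CPM with a median of 34.1 in unstimulated ones. It spanned 27.9 to 36.7 CPM with a median of 33.8 in control LPS mice and 29.7 to 35.3 CPM with a median of 31.2 in unstimulated ones. The groups overlapped in both genotypes. Under LPS its log2 fold change was 0.04 in mice labelled Abca7 (95% interval -0.0887 to 0.163, edgeR adjusted p = 0.785) and 0.09 in control mice (-0.0356 to 0.216, adjusted p = 0.361). Without labelled Abca7 LPS replicate 4 the value in mice labelled Abca7 was -0.015. Per kilobase of the deposited gene length, F3 had the highest mean level of the 9 genes in every group, 18.4 and 17.9 CPM per kilobase in labelled Abca7 LPS and unstimulated mice and 17.9 and 16.8 in control LPS and unstimulated mice.

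Tfpi (2:84432855-84476775), which encodes the inhibitor of tissue factor and factor Xa, did not pass either. Its level was 2.47 to 4.90 CPM (median 3.04) in labelled Abca7 LPS mice, against 3.16 to 3.97 CPM (median 3.66) in unstimulated ones. In control mice it was 2.97 to 4.56 CPM (median 3.29) under LPS, against 3.39 to 3.99 CPM (median 3.69) without. In both genotypes the LPS libraries spread wider than the unstimulated ones and lay on both sides of them. On the log2 scale the change was -0.09 (interval -0.363 to 0.182, edgeR adjusted p = 0.755) in mice labelled Abca7 and -0.04 (-0.305 to 0.235, adjusted p = 0.901) in control mice. With 5 surrogate variables in the model, Tfpi fell by 0.44 on the log2 scale in mice labelled Abca7 (edgeR adjusted p = 0.0221) and by 0.40 in control mice (adjusted p = 0.0289).

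Of the 3 genes of the protein C system, Procr and Pros1 rose and Thbd did not pass. Thbd (thrombomodulin, 2:148404466-148408188) was at 9.26 to 15.9 CPM (median 12.1) in labelled Abca7 LPS mice, against 13.4 to 18.5 CPM (median 15.1) in unstimulated ones. Among control mice Thbd was at 10.7 to 22.1 CPM (median 12.9) under LPS, against 10.4 to 19.5 CPM (median 15.5) without. The groups overlapped in both genotypes, and the highest value of all belonged to an LPS library, control LPS replicate 1. Its log2 fold change was -0.31 (interval -0.608 to -0.0118, unadjusted p = 0.0422, edgeR adjusted p = 0.192) in mice labelled Abca7 and -0.12 (-0.419 to 0.172, adjusted p = 0.631) in control mice.

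Procr (2:155751117-155755471), the endothelial protein C receptor, rose. It was at 0.432 to 2.02 CPM (median 1.28) in labelled Abca7 LPS mice, against 0.215 to 0.507 CPM (median 0.358) in unstimulated ones. In control mice it was at 0.863 to 1.62 CPM (median 1.53) under LPS, against 0.225 to 0.450 CPM (median 0.329) without. The control groups did not overlap, and the labelled Abca7 groups did through 1 library, LPS replicate 4 at 0.432 CPM. Procr thus had a log2 fold change of 1.79 ± 0.27 (SE, n = 6 per group, edgeR adjusted p = 1.8e-05) in mice labelled Abca7 and 2.08 ± 0.27 (adjusted p = 1e-06) in control mice. With surrogate variables in the model the call in mice labelled Abca7 ended (1.16, edgeR adjusted p = 0.0507). The rise stands beside the fall of 9 of 12 endothelial markers, whose part in the Procr values was not tested.

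Pros1 (16:62854307-62929346) encodes protein S, a cofactor of activated protein C that is also a ligand of the receptors Tyro3, Axl and Mertk. It was at 13.3 to 15.5 CPM (median 14.3) in labelled Abca7 LPS mice, against 9.50 to 12.1 CPM (median 10.1) in unstimulated ones. Control mice had 14.2 to 16.2 CPM (median 15.2) under LPS, against 9.85 to 12.1 CPM (median 11) without. The groups did not overlap in either genotype. Its log2 fold change was 0.45 ± 0.06 (SE, edgeR adjusted p = 6.77e-06) in mice labelled Abca7 and 0.47 ± 0.06 (adjusted p = 1.92e-06) in control mice.

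Vwf (6:125546774-125686679) encodes von Willebrand factor, the adhesive protein that endothelial cells store and release and that tethers platelets to an injured wall. It was at 5.39 to 14.8 CPM (median 8.33) in labelled Abca7 LPS mice, against 15.1 to 23.6 CPM (median 17.3) in unstimulated ones. Control mice had 7.0 to 14.1 CPM (median 8.53) under LPS, against 15.7 to 18.1 CPM (median 16.9) without. Every LPS library lay below every unstimulated library of its genotype. Vwf had a log2 fold change of -0.95 ± 0.18 (SE, n = 6 per group, edgeR adjusted p = 0.000295) in mice labelled Abca7 and -0.89 ± 0.18 (adjusted p = 0.000508) in control mice. In bulk tissue, fewer cells of a type and less RNA per cell cannot be told apart. The summed endothelial markers, given above, were lower under LPS too, and their part in the Vwf values was not tested. With the level of Ttr, a choroid plexus gene, in the model, the call in control mice ended (-0.59, edgeR adjusted p = 0.144). Ttr was itself called higher under LPS in control mice, so this setting cannot fully separate its level from LPS there. Over all genes, the calls in control mice went from 3790 to 1626 with Ttr level, and those in mice labelled Abca7 from 2591 to 2939. The choroid plexus markers summed to 201 to 571 CPM in control LPS mice against 20.3 to 318 CPM in unstimulated ones. In mice labelled Abca7 they summed to 40.9 to 456 CPM under LPS against 68.0 to 524 CPM without. The unstimulated medians of this sum were 463 CPM in mice labelled Abca7 and 31 CPM in control mice.

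**Figure D2:**
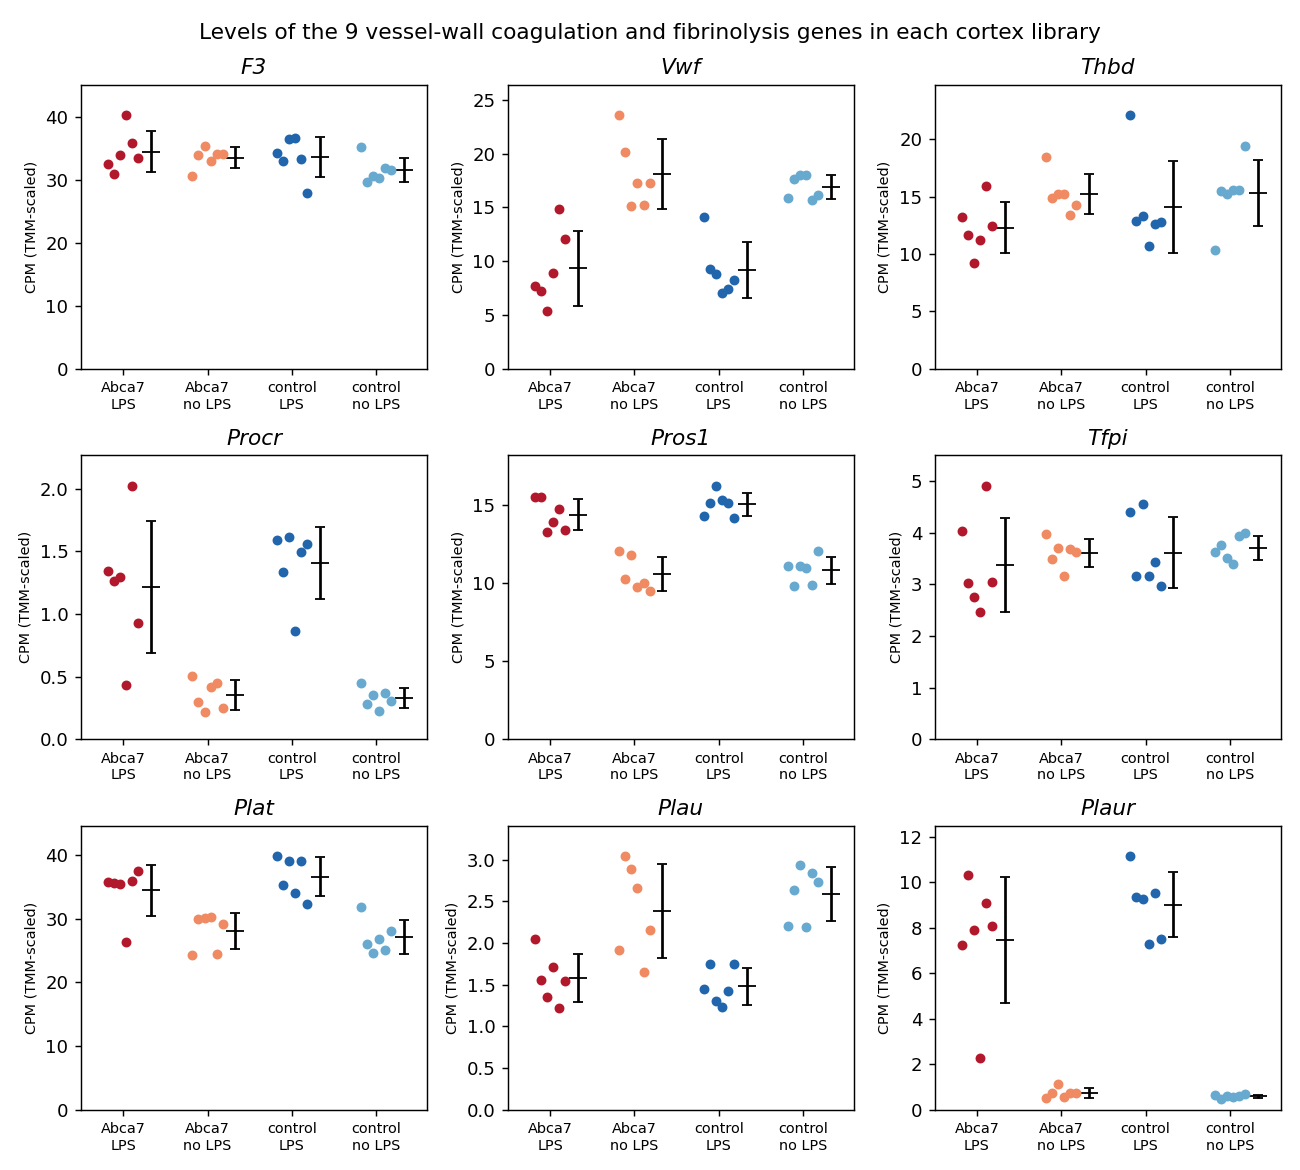
CPM of each of the 9 genes in each library, 1 point per mouse, with the group mean and SD; LPS groups stand left of the unstimulated group of the same genotype. Plaur spans 2.28 to 11.1 CPM under LPS and stays at or under 1.13 CPM without, whereas the 4 groups overlap in F3.

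The plasminogen activators moved in opposite directions. Plat (tissue-type activator, 8:22757744-22782847) was at 26.3 to 37.5 CPM (median 35.6) in labelled Abca7 LPS mice, against 24.3 to 30.3 CPM (median 29.6) in unstimulated ones. Control mice had 32.4 to 39.8 CPM (median 37.2) under LPS, against 24.7 to 31.9 CPM (median 26.4) without. The control groups did not overlap, and in mice labelled Abca7 the overlap came from LPS replicate 4, the library at 26.3 CPM. Plat had a log2 fold change of 0.30 ± 0.08 (SE, n = 6 per group, edgeR adjusted p = 0.0115) in mice labelled Abca7 and 0.43 ± 0.08 (adjusted p = 0.000165) in control mice. Plat lost its call under more settings than the other 5 genes that passed. In mice labelled Abca7 the call ended with age as a factor (0.26, edgeR adjusted p = 0.0535) and with surrogate variables (0.13, adjusted p = 0.605), and in control mice with Ttr level (0.33, adjusted p = 0.0676) and with surrogate variables (0.25, adjusted p = 0.136). Of 10 astrocyte markers, 2 rose and 0 fell in mice labelled Abca7 and 5 rose and 0 fell in control mice, with sums of 4200 to 4820 CPM in labelled Abca7 LPS mice against 4090 to 4880 CPM in unstimulated ones, and 4320 to 4870 CPM in control LPS mice against 4150 to 4590 CPM in unstimulated ones. Their part in the Plat values was not tested.

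Plau (urokinase, 14:20836662-20843388) was at 1.23 to 2.05 CPM (median 1.55) in labelled Abca7 LPS mice, against 1.65 to 3.04 CPM (median 2.41) in unstimulated ones. In control mice it was at 1.23 to 1.75 CPM (median 1.43) under LPS, against 2.19 to 2.93 CPM (median 2.68) without. The control groups were separate and the labelled Abca7 groups overlapped. The log2 fold change was -0.59 ± 0.15 (SE, n = 6 per group, edgeR adjusted p = 0.00575) in mice labelled Abca7 and -0.81 ± 0.15 (adjusted p = 0.000145) in control mice. Both calls ended with surrogate variables in the model (-0.37, edgeR adjusted p = 0.441, and -0.62, adjusted p = 0.0751). Of 10 microglial markers, 9 were lower and 1 higher (Fcrls) under LPS in both genotypes, with sums of 196 to 236 CPM in labelled Abca7 LPS mice against 281 to 301 CPM in unstimulated ones, and 199 to 216 CPM in control LPS mice against 288 to 299 CPM in unstimulated ones. Their part in the Plau values was not tested.

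Plaur (urokinase receptor, 7:24462500-24475873) rose where its ligand gene fell. It was at 2.28 to 10.3 CPM (median 7.99) in labelled Abca7 LPS mice, against 0.530 to 1.13 CPM (median 0.741) in unstimulated ones. Control mice had 7.27 to 11.1 CPM (median 9.30) under LPS, against 0.482 to 0.686 CPM (median 0.613) without. No LPS library overlapped an unstimulated one, and the lowest LPS value, in labelled Abca7 LPS replicate 4, was still above 1.13 CPM. The log2 fold change was 3.32 ± 0.24 (SE, n = 6 per group, edgeR adjusted p = 4.05e-11) in mice labelled Abca7 and 3.90 ± 0.25 (adjusted p = 1.63e-12) in control mice. Without labelled Abca7 LPS replicate 4 the value in mice labelled Abca7 was 3.51.

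White blood cells also carry the urokinase receptor. Of 10 neutrophil markers only 3 passed the filter, of which S100a8 and S100a9 rose under LPS in both genotypes. The list summed to 0.942 to 2.27 CPM in labelled Abca7 LPS mice against 0.395 to 1.37 CPM in unstimulated ones, and to 1.19 to 3.59 CPM in control LPS mice against 0.473 to 0.987 CPM in unstimulated ones. The other 7 were below the filter, and 1 of them, Elane, a gene expressed mainly in bone-marrow precursors, had 0 counts in all 24 libraries. Of 8 monocyte markers, 3 rose and 1 fell in mice labelled Abca7, while 5 rose and 1 fell in control mice. The marker that fell was F13a1 in both genotypes. The part of blood cells in the Plaur values was not tested.

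**Figure D3:**
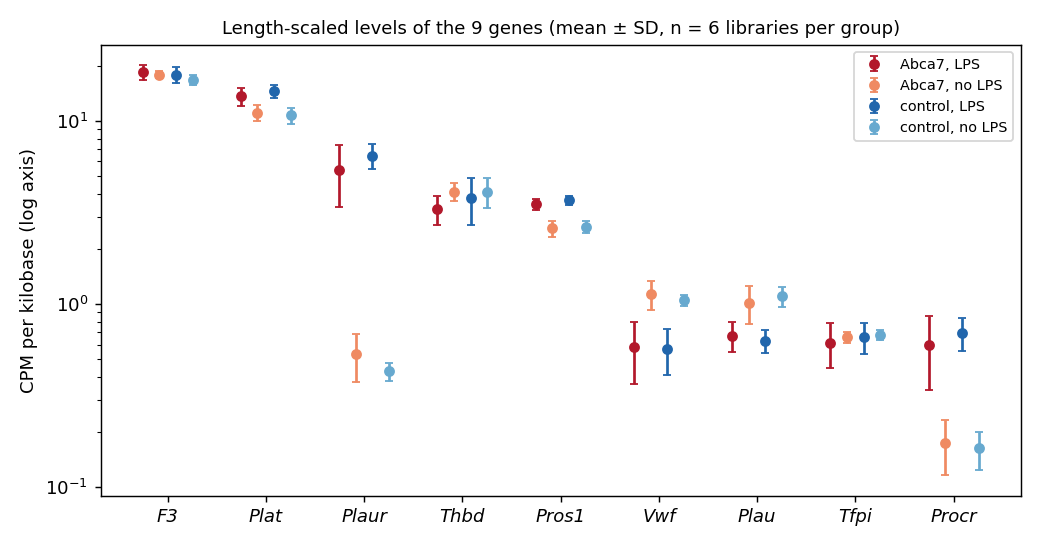
Mean level of the 9 genes per kilobase of the deposited gene length, in each of the 4 groups, on a log scale. F3 and Plat are the 2 highest genes in all 4 groups, and Plaur moves to rank 3 in the LPS groups, at 5.36 CPM per kilobase in labelled Abca7 mice and 6.45 in control mice.

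Scaled by deposited length, Plaur changed rank the most of the 9 genes between the stimuli. It ranked 3 of 9 under LPS, with means of 5.36 CPM per kilobase in labelled Abca7 LPS mice and 6.45 in control LPS mice, and 8 of 9 without LPS, with 0.531 and 0.429. Over the longest coding transcripts Plaur had the same ranks. The rank of 3 depends on the length used. Deposited lengths equal the merged exons for Thbd (3723 bases) and Pros1 (4088 bases). They are shorter than the merged exons for Plaur (1396 against 2617 bases) and Plat (2531 against 6241 bases). Over merged exons the LPS means of Plaur would fall below those of Thbd and Pros1. Procr ranked lowest without LPS (0.175 and 0.163 CPM per kilobase in labelled Abca7 and control mice). Vwf was lowest under LPS, at 0.582 and 0.570 CPM per kilobase over its deposited length of 16064 bases. Over its longest coding transcript of 8834 bases it had 1.06 and 1.04, and ranked 6 of 9. Within a gene, ordering the 4 group means gave 27 steps between neighbours over the 9 genes, of which 6 exceeded the pooled SD. Each of the 6 was the step between the LPS groups and the unstimulated groups of a gene that passed the test, so the genotypes next to each other at the same stimulus did not differ beyond their spread, and for F3, Thbd and Tfpi no neighbours did.

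The same comparison was made within 1 age where both stimuli were present. At 55 days, with 2 LPS and 3 unstimulated mice labelled Abca7, and with 2 and 2 control mice, and at 56 days, with 2 and 1 mice labelled Abca7 and 3 and 3 control mice, all 24 differences of the 6 genes had the sign of the full fit. Vwf had log2 differences of -0.444 at 55 days and -1.02 at 56 days in mice labelled Abca7, and -0.561 and -1.12 in control mice. Plaur differed by 3.6 and 2.90 at 55 and 56 days in mice labelled Abca7 and by 3.74 and 3.84 in control mice. These differences rest on few mice and carry no test.

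Genotype was compared at each stimulus. Under LPS edgeR called 0 of the 9 genes different between the labels, as it did for 0% of all genes; at an unadjusted p under 0.05 the count among the 9 was 0, against 7.99% of all genes, and DESeq2 called 0 of the 7 for which it gave an adjusted p, all but Procr and Plau. Without LPS edgeR called 0 of 9 where 0.032% of all genes passed, with 0 of 9 at an unadjusted p under 0.05 (6.51% of all genes) and 0 with DESeq2. No gene of the 9 had groups without overlap between the labels, against 0.425% of all genes under LPS and 0.26% without. The interaction test called no difference between the LPS effects for any of the 9 genes (0 of 9 with edgeR and 0 with DESeq2, where edgeR called 0% of all genes, and 0 of 9 at an unadjusted p under 0.05, against 3.4% of all genes). The intervals are wide for the genes that rose most: Plaur differed by -0.26 under LPS (interval -0.671 to 0.143) and by 0.31 without LPS (-0.289 to 0.908), and its LPS effect in mice labelled Abca7 minus that in control mice was -0.57 (-1.30 to 0.151). Without labelled Abca7 LPS replicate 4, that difference of effects was -0.39 and the difference under LPS -0.08. For Pros1 the interval was narrow, at -0.191 to 0.067 under LPS and -0.17 to 0.0949 without.

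**Figure D4:**
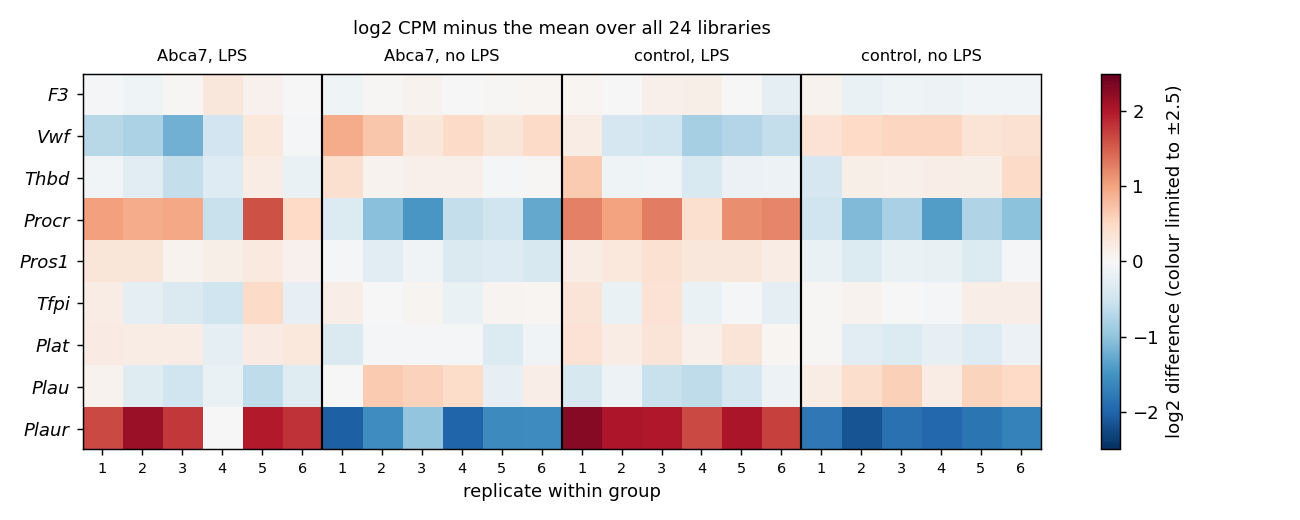
Log2 CPM of the 9 genes in the 24 libraries, each gene shown relative to its own mean, with libraries grouped by genotype label and stimulus. Plaur and Procr are high across the LPS libraries of both genotypes, except in labelled Abca7 LPS replicate 4, which lies near the mean in Plaur and below it in Procr.

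The wider pathway was read from 7 lists that exclude the 9 genes. Of 65 listed genes 48 were tested, and under LPS 7 rose and 3 fell in mice labelled Abca7, or 20.8% of those tested beside 11.8% of all tested genes. In control mice 11 rose and 3 fell, or 29.2% beside 17.3%. Their median log2 fold changes were 0.015 in mice labelled Abca7 and -0.00369 in control mice, close to those of all genes. Between the genotype labels edgeR called 0 of the 48 genes at either stimulus, beside 0.032% of all genes without LPS and 0% under LPS.

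The plasminogen list held most of the rises. Of 10 tested genes, 4 rose and 0 fell in mice labelled Abca7 (median 0.0367), and 6 rose and 0 fell in control mice (median 0.218). A2m, which encodes the broad protease inhibitor alpha-2-macroglobulin, rose by 2.63 and 3.63 on the log2 scale in mice labelled Abca7 and control mice, Serpinf2, which encodes the plasmin inhibitor alpha-2-antiplasmin, by 2.0 and 3.0, and Thbs1, which encodes thrombospondin, by 1.53 and 1.86. Serpine2, which encodes protease nexin, had a log2 fold change of 0.05 in mice labelled Abca7 (edgeR adjusted p = 0.638) and rose by 0.16 in control mice (adjusted p = 0.0299), a call that ended with Ttr level in the model (0.03, adjusted p = 0.876) and with surrogate variables (0.02, adjusted p = 0.873). Leaving out 1 control library also ended it in 7 cases, for replicates 2, 3, 4 and 5 of the LPS group and 2, 3 and 4 of the unstimulated group (edgeR adjusted p from 0.0604 to 0.0888). Anxa2, a plasminogen-binding annexin gene outside the naming rule, was at -0.10 in mice labelled Abca7 (edgeR adjusted p = 0.59) and rose by 0.28 in control mice (adjusted p = 0.0335). The interaction test called no difference between the LPS effects on Serpine2 and Anxa2 (edgeR adjusted p = 1 for both). Plg, the plasminogen gene itself, was too low to be tested, with 20 counts in labelled Abca7 LPS mice against 25 in unstimulated ones and 17 in control LPS mice against 16.

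**Figure D5:**
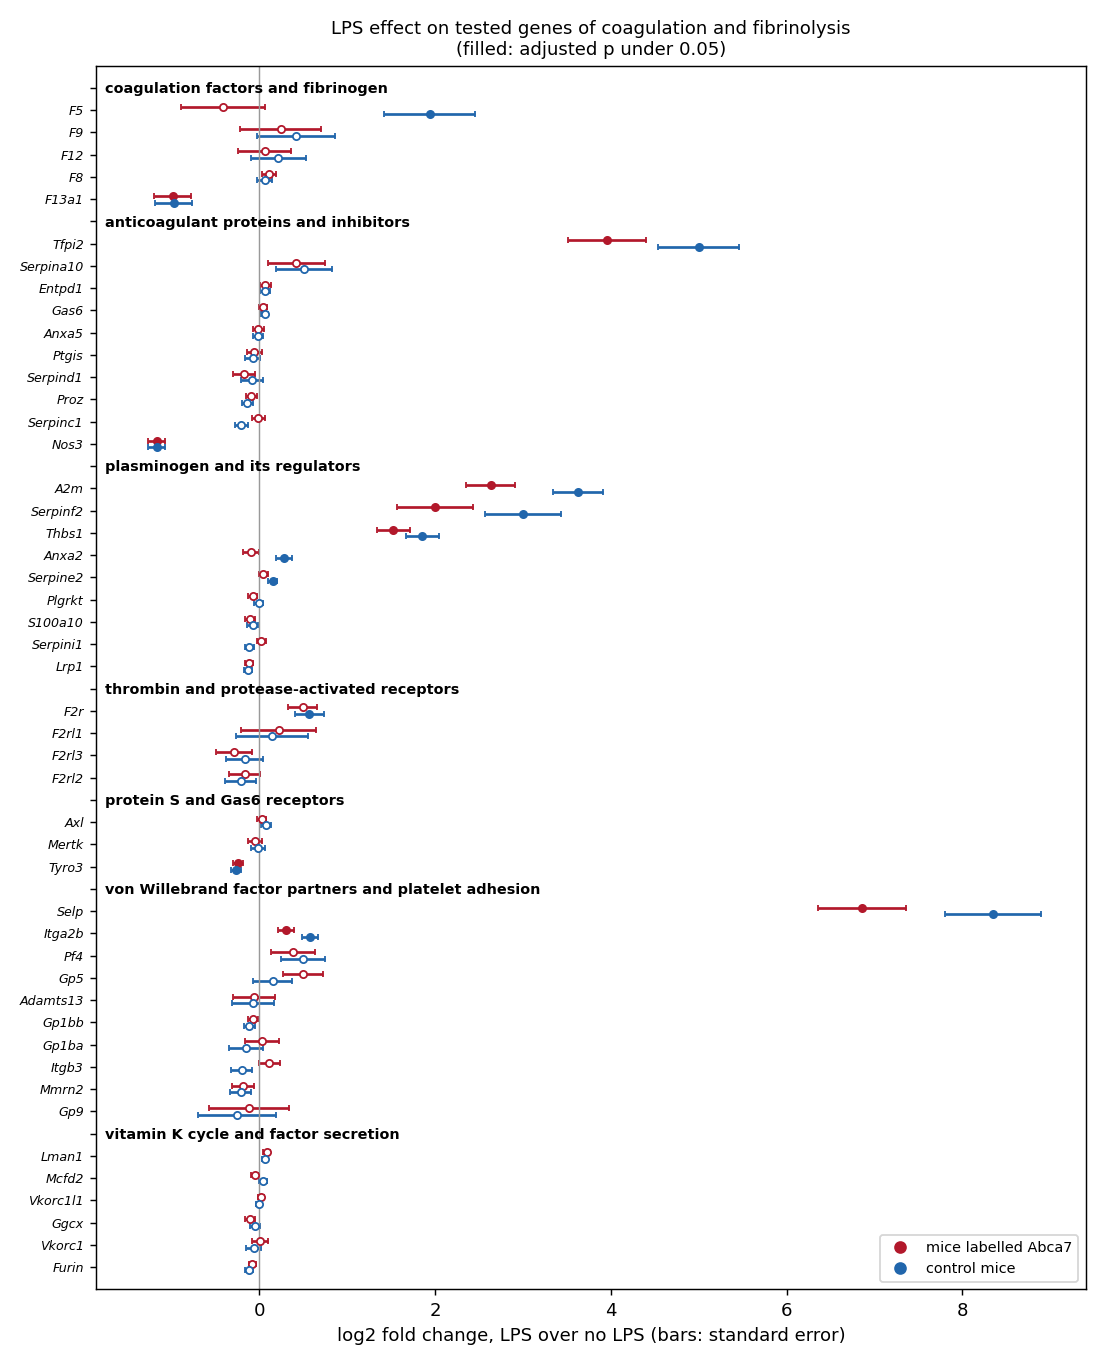
Log2 fold changes under LPS, with standard errors, of tested genes of the 7 lists, in mice labelled Abca7 above and control mice below in each pair; filled points have an adjusted p under 0.05. Selp and Tfpi2 lie farthest to the right, and most other genes lie near 0.

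In the anticoagulant list, 1 of 10 tested genes rose and 1 fell in each genotype (median -0.0098 in mice labelled Abca7 and -0.0422 in control mice). The riser was Tfpi2, which encodes a relative of the Tfpi product. It had 164 counts over the 6 labelled Abca7 LPS libraries against 9 over the unstimulated ones, and 222 over the control LPS libraries against 6, for ratios of 16.9 (95% counting interval 8.70 to 37.7) and 35.5 (16 to 97.7). In the edgeR fit, whose intervals include the spread between mice, Tfpi2 rose by 3.95 on the log2 scale in mice labelled Abca7 (95% interval 3.04 to 4.87). In control mice it rose by 5.0 (4.05 to 5.94). Tfpi, described above, did not pass. The faller was Nos3, which encodes the endothelial nitric oxide synthase, by 1.16 in mice labelled Abca7 and 1.17 in control mice on the log2 scale. Gas6, which encodes the other ligand of the Pros1 receptors, did not pass in either genotype.

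Of the list of von Willebrand factor partners and platelet genes, 2 of 10 tested rose and 0 fell in each genotype (median 0.0724 in mice labelled Abca7 and -0.0913 in control mice). Selp, which encodes the P-selectin stored beside von Willebrand factor, had 3171 counts in labelled Abca7 LPS mice against 24 in unstimulated ones, and 4308 in control LPS mice against 12, for ratios of 123 (95% counting interval 82.3 to 192) and 344 (197 to 667). In the edgeR fit, whose intervals include the spread between mice, Selp rose by 6.86 on the log2 scale in mice labelled Abca7 (95% interval 5.83 to 7.89). In control mice it rose by 8.35 (7.23 to 9.47). Selp rose where Vwf fell. Itga2b, which encodes a platelet integrin subunit, rose by 0.31 and 0.58 on the log2 scale in mice labelled Abca7 and control mice, and its call in mice labelled Abca7 ended with surrogate variables in the model (0.17, edgeR adjusted p = 0.619), with no filter on low counts (0.31, adjusted p = 0.0585), and without labelled Abca7 LPS replicate 1 (adjusted p = 0.0694) or unstimulated labelled Abca7 replicate 2 (0.0668) or 3 (0.0542). Of 8 platelet and megakaryocyte markers, 4 were tested and 1, Itga2b itself, rose.

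Few receptors of Pros1 and thrombin, and few of the factors themselves, passed the test. Tyro3 fell in both genotypes, by 0.24 and 0.27 on the log2 scale, while Axl and Mertk did not pass, so 1 of 3 tested receptors fell. F2r, the thrombin receptor, was at 0.49 on the log2 scale in mice labelled Abca7 (edgeR adjusted p = 0.0579) and rose by 0.57 in control mice (adjusted p = 0.0164), the single call among 4 protease-activated receptors. Among 5 tested coagulation factors, F13a1, which encodes a subunit of the clot-stabilising factor XIII, fell by 0.98 in mice labelled Abca7 and 0.97 in control mice, in both cases on the log2 scale. F13a1 is also the monocyte marker that fell, and the part of blood cells in its values was not tested. F5 was at -0.41 in mice labelled Abca7 (edgeR adjusted p = 0.68) and rose by 1.94 in control mice (adjusted p = 0.00845), with an interaction adjusted p of 1. Its median was 0.916 CPM in unstimulated control mice (highest 5.94) and 5.65 CPM in control LPS mice. In mice labelled Abca7 it was 6.72 CPM without LPS and 4.25 CPM under LPS. Without LPS, F5 was 1.845 higher on the log2 scale in mice labelled Abca7 than in control mice (unadjusted p = 0.00148, edgeR adjusted p = 0.374). F5 is also a choroid plexus marker, and 8 of 10 such markers rose in control mice and 0 in mice labelled Abca7. With Ttr level in the model, the calls in control mice ended for F2r (0.04, edgeR adjusted p = 0.953), Tyro3 (-0.13, adjusted p = 0.373), F13a1 (-0.82, adjusted p = 0.102) and F5, whose sign turned (-0.21, adjusted p = 0.757). With surrogate variables the F13a1 call ended in mice labelled Abca7 (-0.86, edgeR adjusted p = 0.0947) and control mice (-0.77, adjusted p = 0.122), and in control mice so did those of F2r (0.23, adjusted p = 0.252) and F5 (1.14, adjusted p = 0.117). None of the 6 genes of the vitamin K cycle and factor secretion passed in either genotype.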

How the data were processed

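Cortical total RNA was extracted with TRIzol, a DNase step and RNeasy columns, per the labels' protocols. Reads were aligned with STAR 2.5.2b to mm10, per the submitters' processing notes, and genes counted with MAP-RSeq 2.1.1, per the series design text. Annotation, strand setting and treatment of multiply matched reads: not given in the sources used here. What the authors deposited is a table of raw, unnormalized whole counts for each gene, with coordinates and gene lengths. The 9 genes overlap no other gene in GENCODE M21, and at most 0.542% of the 50-base sequences of any of them (Vwf) occur in another gene.

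From these counts, genes were filtered with filterByExpr (21891 of 43346 kept, at least 99.96% of counts) and scaled with TMM in edgeR 4.0.16 (R 4.3.3). All 24 libraries entered 1 fit with a coefficient per group, followed by two-sided quasi-likelihood F tests of 5 contrasts, adjusted by Benjamini-Hochberg with a threshold of 0.05. SE is log2 fold change over the root of F. CPM carries no prior count; log2 CPM has a prior count of 2. Counting intervals cover counting error only. The code was tested on simulated data. The ribosomal repeat loci took 5.88% to 18.7% of the counts of a library. Alternatives were DESeq2 1.42.0, its size factors, no filter, age, Ttr level, surrogate variables (sva 3.50.0) and 24 leave-one-out fits.

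The 9 genes and the lists were chosen with earlier results of these data known. The text names all 9 genes, up to 4 called genes per pathway list by size of change in control mice, a few genes fixed by name, and the 3 genes most alike each of the 9. Animals are taken from separate titles, and nothing pairs them between groups; replicate numbers only name libraries. A gene of the plasminogen list that enters its counts is not reported here.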

Additional observations from a re-analysis of the deposited data

Results flagged for a closer look

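Of 36 groups of 6 libraries (9 genes in 4 groups), 4 held a library whose gap to its nearest neighbour took more of the range of the group than Dixon's 95% critical value, and chance flags about 1 in 20 groups. Plaur in labelled Abca7 LPS replicate 4 was the lowest of its group, at 2.28 CPM and a log2 CPM of 1.21, where the other libraries had 2.86 to 3.37. Plat in the same library was the lowest of its group, at 26.3 CPM and a log2 CPM of 4.72, where the others had 5.15 to 5.23. Procr in control LPS replicate 4 was the lowest of its group, at 0.863 CPM and a log2 CPM of -0.158, where the others had 0.455 to 0.722. Thbd in control LPS replicate 1 was the highest of its group, at 22.1 CPM and a log2 CPM of 4.47, where the others had 3.42 to 3.74. Without labelled Abca7 LPS replicate 4, the log2 fold change under LPS in mice labelled Abca7 was 3.51 for Plaur, 0.358 for Plat and 1.95 for Procr, and every call of the 9 genes stayed.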

How the results depend on the processing

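No left-out library changed a call of the 9 genes: 6 were called in both genotypes under LPS in all 24 such fits. With age as a factor 5 were called in mice labelled Abca7 (the single 58-day mouse is then fitted by its own term). With Ttr level 4 were called in control mice, and with surrogate variables 4 in mice labelled Abca7 and 5 in control mice, Tfpi among them. Over the other settings, the LPS results of the 9 genes kept side and direction in 94 cases, lost the call in 8, gained one in 2 and changed sign without a call in 4. Over all genes, LPS called 2591 in mice labelled Abca7 and 3790 in control mice; Ttr level gave 1626 in control mice, and surrogate variables 1280 and 1838. The genotype called 0 genes under LPS, against 37 with DESeq2, 2 with age and 15 with surrogate variables, and 0 to 1 with a library left out. Without LPS it called 7, against 31, 49 and 97 for those settings and 3 with Ttr level, and 2 to 38 with a library left out; the 38 came without unstimulated control replicate 1. The interaction called 0, and 0 to 7 with a library left out. F5 in control mice turned to -0.213 with Ttr level (edgeR adjusted p = 0.757); the cause was not tested. Serpine2 in control mice lost its call without any 1 of 7 libraries. Depth limits Procr most, at 12 counts in its lowest library. No paired analysis was possible because the labels carry no replicate numbers.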

Other observations

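A few genes of the pathway that the filter left out were read by their counts, chosen after their values were seen. Fgg, a fibrinogen chain gene, had 14 counts over the 6 labelled Abca7 LPS libraries against 2 over the unstimulated ones, and 34 over the control LPS libraries against 1 (ratios of 6.50, 95% counting interval 1.49 to 58.9, and 32.6, 5.47 to 1330). These counts came from 3 labelled Abca7 LPS libraries and 1 unstimulated one, and from 6 control LPS libraries and 1 unstimulated one. With no filter, edgeR called Fgg in control mice (adjusted p = 0.00398) and not in mice labelled Abca7 (adjusted p = 0.229). The interaction test with no filter called no difference between these LPS effects on Fgg (log2 difference -1.99 ± 1.69, SE). Fga and Fgb, the other fibrinogen chain genes, did not pass with no filter in mice labelled Abca7 (edgeR adjusted p = 0.266 and 0.442). Nor did they in control mice (0.219 and 0.842). F10, the gene of factor X, had 31 counts against 6 in mice labelled Abca7 and 51 against 11 in control mice. It did not pass with no filter (edgeR adjusted p = 0.135 and 0.0723). The 6 counts in unstimulated mice labelled Abca7 came from 1 library.

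The variation within groups was compared between genes. Taking each library's deviation from its group mean over all 24 libraries, Plaur was most like Cd14, the LPS co-receptor gene (Pearson r = 0.922), Rnd1 (0.877) and Tnip1 (0.861), and these values were 0.714, 0.503 and 0.447 without labelled Abca7 LPS replicate 4. Without that library the genes most like Plaur were Mrpl20 (0.732), Cd14 (0.714) and P4htm (0.71). Vwf was most like Ogn (0.878), Hapln1 (0.837) and Abhd2 (0.819), and Thbd like Tmem215 (0.883), Larp4b (0.852) and Prickle2 (0.846). Procr was most like Timeless (0.828), Irgm1 (0.802) and Mx2 (0.801), but without that library these were 0.68, 0.669 and 0.632, and Ccnl1, Pcdhb9 and Pstpip2 took their place. Plat was most like Nfil3 (0.847), Cxcl16 (0.783) and Csrnp1 (0.776), which were 0.802, 0.63 and 0.643 without it. Tfpi was most like Thumpd1 (0.843), Rab7 (0.838) and Odc1 (0.823), and F3 like Minos1 (0.81), the gene listed as 15-Sep (0.772) and Syf2 (0.771). Plau was most like Itgam (0.681), Iqub (0.661) and Slc37a3 (0.661), and Pros1 like Nedd4 (0.749), Ccdc47 (0.741) and 2610301B20Rik (0.738). Without labelled Abca7 LPS replicate 4, the gene most like F3 was Fhl1 (0.834), and the gene most like Pros1 was Avl9 (0.795). Within the 9 genes, the pairs above 0.5 were Vwf and Thbd (0.724), Plat and Plaur (0.702), Thbd and Tfpi (0.613), Procr and Tfpi (0.57), and Vwf and Tfpi (0.506). Without that library they were 0.729, 0.444, 0.631, 0.431 and 0.563 in the same order. The set of pairs changed too. F3 and Plat had 0.0749 over all 24 libraries and 0.548 without labelled Abca7 LPS replicate 4. F3 and Plaur turned from -0.234 to 0.379. These are descriptions over 24 libraries in which all genes share a library's depth and tissue, and say nothing of shared function.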
